A study of Mus musculus with 4 samples.

Results

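The collagen gene family was examined here across RNA-seq libraries of E12.5 mouse embryo neural tube. Its members were 38 listed collagen genes, chosen by name, of 24971 genes counted, and all 38 were found in the count tables. For the comparisons they were sorted into 8 fibrillar collagens, 9 collagens of basement membranes, 7 collagens of cartilage and 14 others (beaded filament, short-chain network, fibril-associated and transmembrane collagens).

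Each of the 4 libraries was made from neural tubes of C57BL/6 embryos. The groups were 2 libraries labelled WT and 2 labelled Lbx1Δ/Δ (mutant-labelled below), numbered 1 and 2 in each group. Per the labels, littermate tubes of the same genotype were pooled as a replicate, so the p-values by genotype measure the spread between such pools. The labels give neither the deleted part of Lbx1 nor whether libraries of the same number share a litter. Lbx1 encodes a homeodomain transcription factor of dorsal interneurons and of migrating muscle precursors. Its counts were 819 and 1379 in the WT libraries and 1946 and 6520 in those labelled Lbx1Δ/Δ, so they do not check the genotype label and every direction below is between libraries as labelled. Totals were 20579803 and 16948717 counts in WT pools 1 and 2 and 17250143 and 16853984 in the mutant-labelled libraries. A gene's level is its count divided by the library's total and scaled to CPM (counts per 1000000), and 0 counts allow up to 0.146 to 0.178 CPM (3 counts), a bound on counting error only.

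Collagens are trimers of chains wound into a triple helix. Fibrillar collagens form the tensile fibres of mesenchyme, meninges, dermis, tendon and bone, and the cartilage collagens form the thinner fibrils of the vertebral and skull templates. Type IV collagen forms the sheet-like network of the basement membranes that enclose the neural tube and its vessels. The neuroepithelium itself is poor in fibrillar collagen, most of which is made by the mesenchyme, meningeal precursors and vessel-associated cells around it. A dissected neural tube can carry some of that tissue.

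Collagen genes together took 0.959% of all counts in WT library 1, 0.763% in WT library 2, and 0.683% and 0.698% in mutant-labelled libraries 1 and 2. Their summed level was 9593, 7626, 6833 and 6976 CPM in the same order. WT library 1 stood highest and the groups did not overlap. The difference of the mutant-labelled library from WT was −28.8% within number 1 and −8.53% within number 2. In these pools, fewer cells of a collagen-making type and less collagen RNA per cell cannot be told apart.

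Fibrillar collagens supplied 71.0% of the collagen counts, those of basement membranes 9.62%, those of cartilage 7.45% and the others 11.9%. The 13 members counted as several RefSeq transcripts supplied 0.962% of these counts. Their values are uncertain, as told below, and so are the class shares and the order of genes. Col3a1 (24.2% of the collagen counts), Col1a2 (20.9%) and Col1a1 (15.5%) led the family. Per kilobase of transcript and averaged over the 4 libraries, their levels were 337, 304 and 203 CPM per kilobase, followed by 97.6 for Col4a2 and 54.0 for Col5a1. Col3a1 and Col1a2 overlapped in their ranges over libraries (295 to 440 and 247 to 393 CPM per kilobase). Type I collagen is built with more alpha 1 than alpha 2 chains, while the RNA level per kilobase was higher for Col1a2 than for Col1a1 in each library (393 against 235, 290 against 218, 285 against 172 and 247 against 188).

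**Figure D1:**
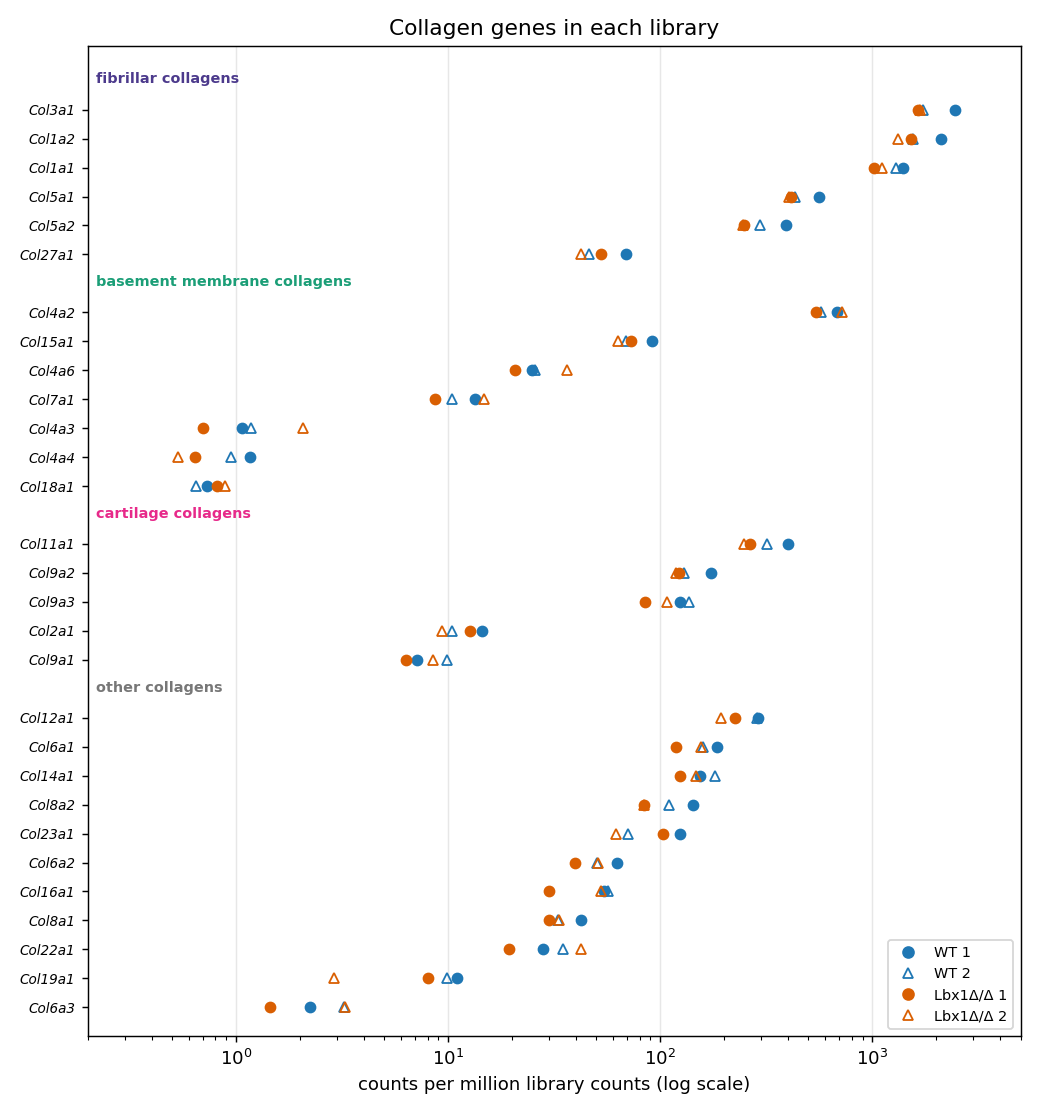
Level of each tested collagen gene in each library, in CPM on a log scale, grouped by class; circles are number 1, triangles number 2, blue WT and orange libraries labelled Lbx1Δ/Δ. The fibrillar genes have their highest point in WT library 1, while Col4a2, Col4a6 and Col7a1 have theirs in mutant-labelled library 2.

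Several members had few or no counts. Of the 38 genes, 25 had 1 RefSeq accession in the tables and 13 had several, and counts were given for each accession separately. Col4a2, with 1 accession, had 13978, 9710, 9416 and 12157 counts. Its partner Col4a1, which encodes the other chain of the main type IV trimer and lies head to head with Col4a2, had 4, 5, 2 and 0 counts over 2 accessions. On the GENCODE models matched to those accessions, 145 bases of NM_009931 and 17 of NR_133670 are not shared with the other. Col5a3, Col24a1 and Col13a1 had 0 counts in every library, and the best of their accessions held 0, 0 and 227 unshared bases. Col2a1, the main collagen of cartilage, had 0 counts on NM_001113515, which has 0 unshared bases, and 299, 176, 218 and 157 counts on NM_031163, which has 242. On those bases its level was 60.0, 42.9, 52.2 and 38.5 CPM per kilobase. The handling of reads that fall on shared bases is not given in the sources used here, and its part in these low values was not tested.

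Filtering on low counts kept 29 members: 24 of the 25 with 1 accession and 5 of the 13 with several (Col2a1, Col6a2, Col6a3, Col9a1 and Col18a1). The 9 left out had 0 to 21 counts in all. They were Col4a1, Col4a5, Col5a3, Col11a2, Col13a1, Col17a1, Col24a1 and Col25a1, each with several accessions, and Col10a1, the collagen of hypertrophic cartilage, which had 1 accession and 0 counts. The values of all members with several accessions are uncertain. Reads from closely similar collagen chains cannot be told apart further from the counts.

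The first comparison asked which genes differed in level with the genotype label. Fitted values were lower in the mutant-labelled libraries for 25 of the 29 tested collagen genes, with a median log2 difference of −0.32, against 50.5% lower and a median of −0.0026 over all 10757 tested genes. No collagen gene passed edgeR's quasi-likelihood test after Benjamini-Hochberg adjustment over all genes (adjusted p of 0.9998 for each), and 0% of all genes did. At an unadjusted p under 0.05 stood 3 collagen genes (Col8a2, Col11a1 and Col12a1, all lower), against 0.511% of all genes and 0.27% for lower genes alone, and DESeq2 had 1 collagen gene there, against 0.307% of all genes, and 0 after adjustment. Both libraries labelled Lbx1Δ/Δ were below both WT libraries for 15 of the 29, against 9.31% of all genes, and both were above for 1, Col18a1, against 11.3%. Col18a1 had 15 and 11 counts in WT and 14 and 15 in the mutant-labelled libraries, where counting error limits what can be seen. These edgeR tests had no term for the replicate number. With the number as a block, not known to pair the libraries, some collagen genes passed, as given in the section on processing.

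Within number 1, 28 of the 29 genes were lower in the mutant-labelled library, with a median log2 difference of −0.50. Within number 2, 20 were lower, with a median of −0.13. The same 20 genes were lower within both numbers, against 28.9% of all genes. WT library 1 was the highest library for 18 of the 29, against 26.7% of all genes. Without it 21 of 29 had lower fitted values and the median was −0.15, and without each of the other libraries the median was −0.29 to −0.45. Of the 25 genes with lower values, 15 had a log2 difference more than 1.5 times smaller, or of the other sign, without WT library 1. The same held for 4 to 9 of them without each other library.

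**Figure D2:**
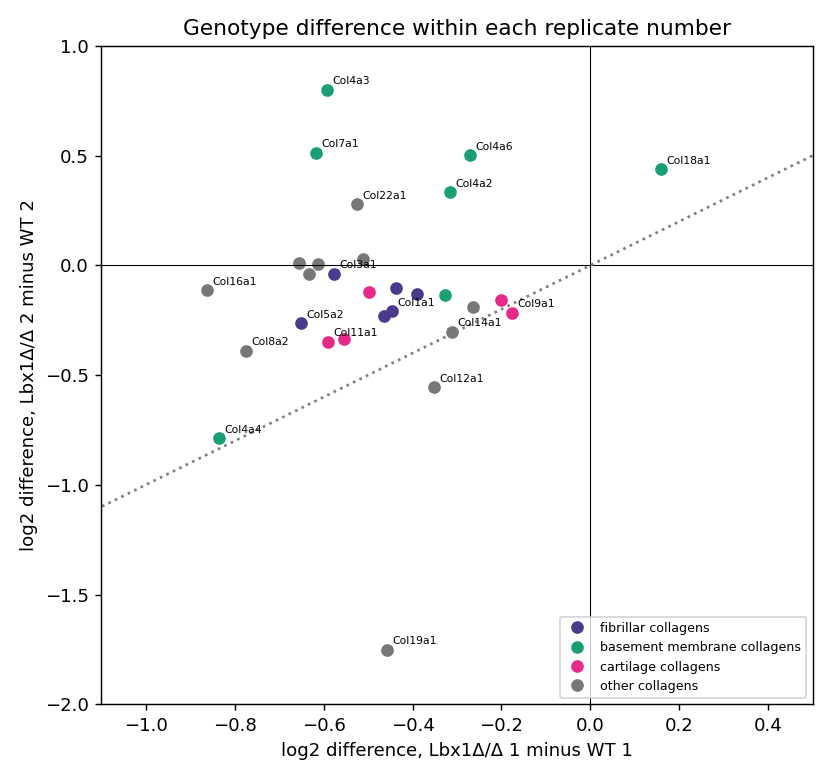
Log2 difference between the mutant-labelled library and WT within number 1 (horizontal) and within number 2 (vertical) for the 29 tested collagen genes, coloured by class, with selected genes named; the dotted line marks equal differences. Col18a1, with 11 to 15 counts a library, is the only gene to the right of 0. Col4a2, Col4a3, Col4a6 and Col7a1 lie left of 0 and above it. So do Col22a1, Col8a1, Col6a2 and Col6a3 of the other collagens, at 0.28, 0.029, 0.011 and 0.0081 within number 2.

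All 6 tested fibrillar collagens had lower fitted values in the mutant-labelled libraries, within number 1 and within number 2 alike. Their summed level was 6965 and 5345 CPM in WT and 4905 and 4813 CPM in the mutant-labelled libraries, and their median log2 difference was −0.34. Col1a1, the alpha 1 chain of type I collagen, was at 1393 and 1291 CPM in WT and at 1022 and 1117 CPM in the mutant-labelled libraries. Its groups did not overlap, and its fitted log2 difference was −0.34 (SE 0.17). Col1a2, the alpha 2 chain, was at 2104 and 1549 CPM in WT and at 1525 and 1320 CPM in the others, a log2 difference of −0.37 (SE 0.24). WT library 2 and mutant-labelled library 1 were nearly level for this gene.

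Col3a1, which forms fibrils with type I collagen in soft tissue and is the ligand of the adhesion receptor Adgrg1 at the brain surface, was at 2447 and 1730 CPM in WT and at 1642 and 1685 CPM in the mutant-labelled libraries. WT library 1 set most of that difference: the fitted log2 value was −0.34 (SE 0.24) with it and −0.051 without it. Col5a1 and Col5a2 encode chains of type V collagen, which starts type I fibrils. Col5a2 was at 390 and 294 CPM in WT and at 248 and 245 CPM in the others (log2 −0.49, SE 0.20), and Col5a1 was at 561 and 434 against 415 and 404 CPM (log2 −0.30, SE 0.19). Col27a1, a fibrillar collagen of cartilage, was at 69.1 and 46.4 CPM in WT and 52.7 and 42.4 CPM in the others, and its groups overlapped. Without WT library 1 the fibrillar median was −0.097, and without WT library 2 it was −0.57.

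Promoter sequence was available for 30 of the 38 genes, as 33 windows from RefSeq on GRCm38.p6. The count tables were made on mm9, so positions of that table are not those of the counts. The 250 bases before the start are shown for the 2 fibrillar genes with the most counts, Col1a2 at chr6:4505368-4505617 and Col3a1 at chr1:45311288-45311537, both on the + strand. Capitals mark the letters of the CCAAT box, of the TATA box in its form TATAAA, and of the GC box in its form GGGCGG, each searched on both strands.
Col1a2: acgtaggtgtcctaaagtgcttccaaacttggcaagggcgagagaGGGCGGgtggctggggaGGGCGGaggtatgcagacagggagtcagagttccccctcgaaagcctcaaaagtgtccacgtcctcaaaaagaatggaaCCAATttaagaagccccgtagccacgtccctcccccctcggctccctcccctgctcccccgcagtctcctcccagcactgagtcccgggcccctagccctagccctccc
Col3a1: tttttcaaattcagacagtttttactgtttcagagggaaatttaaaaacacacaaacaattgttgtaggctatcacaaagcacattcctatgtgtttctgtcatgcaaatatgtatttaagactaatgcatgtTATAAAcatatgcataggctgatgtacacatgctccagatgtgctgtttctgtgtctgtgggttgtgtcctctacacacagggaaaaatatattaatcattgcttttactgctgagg
These 2 genes, whose levels per kilobase overlapped, differed in their windows. The Col1a2 window held 62% G and C, with 1 CCAAT and 2 GGGCGG, and that of Col3a1 held 35.2%, with 1 TATAAA and none of the other motifs. Over the 33 collagen windows CCAAT was in 36.4%, TATAAA in 15.2% and GGGCGG in 57.6%, against 33.9%, 12.4% and 32.7% of 32851 mouse windows of the same length. A match to these letters describes the window and is not a site of binding.

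Among the 7 tested collagens of basement membranes, 3 had lower and 4 higher fitted values, against 50.5% of all genes lower. Within number 1, 6 of the 7 were lower (median −0.33), and within number 2, 2 were (median 0.44). A difference between classes was not tested. The median log2 difference was 0.0017, and their summed level was 813 and 681 CPM in WT and 651 and 840 CPM in the mutant-labelled libraries. The difference of that sum from WT was −19.9% within number 1 and 23.2% within number 2. Col4a2 was at 679 and 573 CPM in WT and at 546 and 721 CPM in the others. It was lowest in mutant-labelled library 1 and highest in mutant-labelled library 2, and the fitted log2 difference was 0.0017 (SE 0.21).

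Col4a6, of the type IV trimer found under epithelia and smooth muscle, was at 24.8, 25.8, 20.6 and 36.5 CPM in WT pools 1 and 2 and mutant-labelled libraries 1 and 2. Col7a1, the anchoring fibril of skin, was at 13.4, 10.4, 8.70 and 14.8 CPM in the same order. Both spanned the WT values in the mutant-labelled libraries, low in number 1 and high in number 2. Col15a1, found at the basement membranes of vessels and muscle, was lower within both numbers, at 91.9, 69.3, 73.2 and 63.1 CPM (log2 −0.25, SE 0.22), and its log2 difference was −0.016 without WT library 1. Col4a3 and Col4a4, which lie head to head and encode partner chains, were scarce. Col4a3 had 22 and 20 counts in WT and 12 and 35 in the others, and Col4a4 had 24 and 16 against 11 and 9. The median of the class was 0.31 without mutant-labelled library 1 and −0.30 without mutant-labelled library 2.

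**Figure D3:**
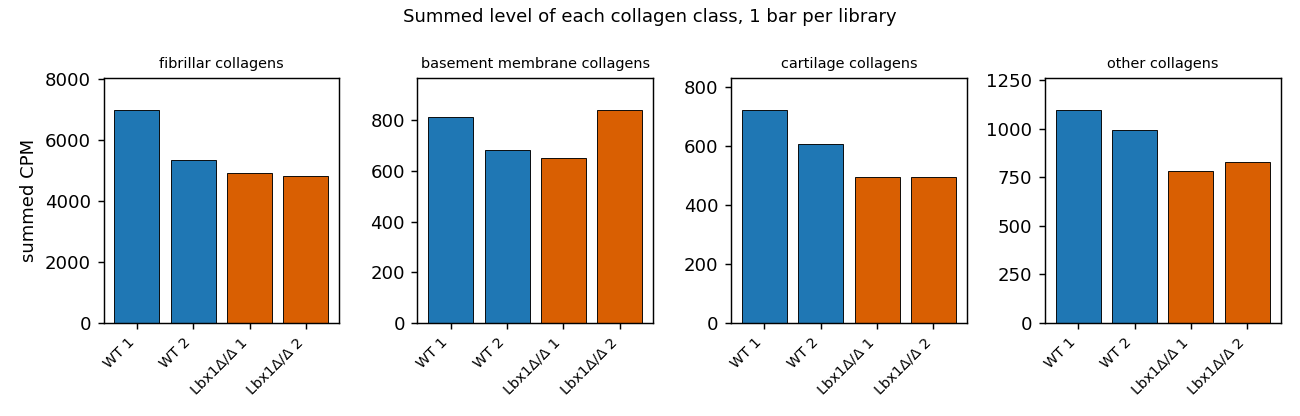
Summed level of each collagen class in CPM, with 1 bar for each library (blue WT, orange labelled Lbx1Δ/Δ); each panel has its own axis from 0. Fibrillar, cartilage and other collagens are lower in both orange bars than in both blue bars, and basement membrane collagens are highest in mutant-labelled library 2 at 840 CPM.

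Other components of basement membranes, listed for comparison, had 4 of 11 tested genes with higher and 7 with lower fitted values by genotype and a median of −0.073. None was called. The endothelial list summed to 390 to 435 CPM over the 4 libraries, all of it from Cdh5, Kdr, Flt1 and Cldn5, while Pecam1, Tek, Emcn and Sox17, with several accessions each, had 0 counts. The pericyte marker list summed to 403 to 480 CPM, with Pdgfrb, Kcnj8 and Abcc9, each counted as several RefSeq transcripts, at 0 counts. The part of vessels in the basement membrane values was not tested.

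Cartilage collagens had lower fitted values in the mutant-labelled libraries for 5 of 5 tested genes and within both numbers. The median was −0.34 on the log2 scale. Their sum was 720 and 604 CPM in WT and 492 and 495 CPM in the mutant-labelled libraries. Col11a1, a chain of the thin cartilage fibril that is also made in mesenchyme, was at 399 and 318 CPM in WT and at 265 and 250 CPM in the others. Its log2 difference was −0.49 (SE 0.18, unadjusted p = 0.0472 in edgeR) and was negative without each library in turn (−0.30 to −0.65). Col9a2 and Col9a3 encode chains of type IX collagen, which coats those fibrils. Col9a3 was at 125 and 136 CPM in WT and at 84.9 and 108 CPM in the others (log2 −0.45, SE 0.18), and Col9a2 was at 174 and 130 against 123 and 119 CPM (log2 −0.34, SE 0.20). Both genes had groups that did not overlap, and the log2 difference of Col9a2 was −0.092 without WT library 1. Col2a1 was at 14.5, 10.4, 12.6 and 9.32 CPM, and its groups overlapped.

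Markers of cartilage matrix had lower fitted values too in the mutant-labelled libraries, for all 5 tested of the 7 listed (Matn1, Matn3, Hapln1, Comp and Sox9), with a median of −0.64, and the list summed to 389 and 295 CPM in WT and 357 and 240 CPM in the mutant-labelled libraries. Sox9, which neural progenitors also express, made up most of that sum. Cnmd and Acan were each counted as 2 RefSeq transcripts. Cnmd had 0 counts and Acan too few to be tested, and both values are uncertain. The part of cartilage in the collagen values was not tested.

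Of the 11 tested remaining collagens, 11 had lower fitted values in the mutant-labelled libraries, 7 of them within both numbers. The median log2 difference was −0.33, which was −0.18 without mutant-labelled library 1 and −0.51 without mutant-labelled library 2. Col8a2, a short-chain network collagen of the cornea's basement membrane, was at 143 and 110 CPM in WT and at 83.6 and 84.0 CPM in the others. It had the smallest p of the family, with a log2 difference of −0.61 (SE 0.19, unadjusted p = 0.027 in edgeR). Col8a1, its partner, was at 42.5 and 32.9 CPM in WT and at 29.8 and 33.5 CPM in the others, and overlapped.

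Col12a1 and Col14a1 are fibril-associated collagens of tendon, fascia and dermis. Col12a1 was at 289 and 286 CPM in WT and at 226 and 195 CPM in the mutant-labelled libraries (log2 −0.46, SE 0.16, unadjusted p = 0.0397 in edgeR), and Col14a1 was at 154 and 181 against 124 and 147 CPM (log2 −0.32, SE 0.17). Neither pair of groups overlapped, and the WT values of Col12a1 lay within 4 CPM of each other. Type VI collagen, the beaded filament around cells, is built from chains of Col6a1, Col6a2 and Col6a3. Col6a1 was at 185, 159, 119 and 155 CPM and Col6a2 at 62.6, 50.6, 39.7 and 51.0 CPM in WT pools 1 and 2 and mutant-labelled libraries 1 and 2. For both, mutant-labelled library 1 stood lowest and library 2 lay near WT library 2.

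Col16a1 and Col22a1, fibril-associated collagens, were lowest in mutant-labelled library 1. Col16a1 was at 54.6 and 56.6 CPM in WT and at 30.0 and 52.3 CPM in the others, and Col22a1, found at the junction of muscle and tendon, was at 27.9 and 34.7 against 19.4 and 42.1 CPM. Col19a1, made in embryonic muscle and by some neurons, had 228 and 167 counts in WT and 139 and 49 in the mutant-labelled libraries (log2 −0.94, SE 0.55). That value was −0.38 without mutant-labelled library 2 and −1.86 without mutant-labelled library 1. The skeletal muscle markers summed to 883 and 420 CPM in WT and to 755 and 133 CPM in the others, with mutant-labelled library 2 lowest as for Col19a1, and their part in that value was not tested.

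By replicate number, 2 of 29 collagen genes (6.90%) passed edgeR's test between the pools of number 2 and number 1 at an adjusted p under 0.05, against 25.5% of all 10757 genes. One was lower (12.2% of all genes were) and the other higher (13.3%). The difference between those shares was not tested. The labels do not say what the numbers stand for. In this test each number held 1 WT and 1 mutant-labelled pool, so its p-values measure a spread that includes the difference by label. Fitted values were lower in number 2 for 18 collagen genes and higher for 11, with a median log2 difference of −0.12, against 0.00021 over all genes. The median was −0.29 between the WT pools and 0.13 between those labelled Lbx1Δ/Δ. Without WT library 1 it was 0.18, and without mutant-labelled library 1 −0.31. Both pools of number 2 lay below both of number 1 for 4 collagen genes, against 31.9% of all genes, and above for 5, against 34.1%.

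Col23a1, a transmembrane collagen, fell in number 2. Its level was 124 and 103 CPM in the WT and Lbx1Δ/Δ pools of number 1 and 70.6 and 61.9 CPM in those of number 2, a log2 difference of −0.80 (SE 0.13, edgeR adjusted p = 0.00226). Its difference by genotype was small beside that, at −0.26 within number 1 and −0.19 within number 2. Col22a1 rose in number 2, from 27.9 and 19.4 CPM to 34.7 and 42.1 CPM (log2 0.68, SE 0.20, edgeR adjusted p = 0.0317). Both calls were lost without WT library 1 and without mutant-labelled library 1, where 1 and 6 of all genes were called. Short of the threshold, Col27a1 (log2 −0.48), Col2a1 (log2 −0.48) and Col15a1 (log2 −0.34) had levels in number 2 that lay below both of number 1, and Col4a3 (log2 0.85), Col6a3 (0.79), Col4a6 (0.43) and Col9a1 (0.43) had levels above both.

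Of 9 tested markers of mesenchyme 8 had lower fitted values in number 2, and 7 of them passed the test. The markers summed to 492 and 238 CPM in WT pools 1 and 2 and to 436 and 127 CPM in those labelled Lbx1Δ/Δ, differences of −51.6% and −70.9% for number 2, and the 7 called (77.8%, against 25.5% of all genes) had lower values, with a median over the 9 of −1.40 on the log2 scale. Dpt, a matrix protein of dermis, had a value of 0.57 and did not pass. As for Col22a1 and Col23a1, the 7 calls were lost without WT library 1 and without mutant-labelled library 1. Number 1 then has 1 library, so what that loss means cannot be judged. For summed fibrillar collagens the same differences were −23.2% and −1.86%, and 0 of 6 passed, with a median of −0.27. Meox1, of somite-derived mesenchyme, was at 56.7 and 21.0 CPM in WT and at 60.3 and 9.20 CPM in the mutant-labelled libraries. Twist1, a transcription factor of mesenchyme, was at 185, 90.6, 164 and 41.1 CPM. By genotype the mesenchyme sum differed by −11.4% within number 1 and −46.7% within number 2, and the fibrillar sum by −29.6% and −9.95%. The part of mesenchyme in the collagen values was not tested.

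**Figure D4:**
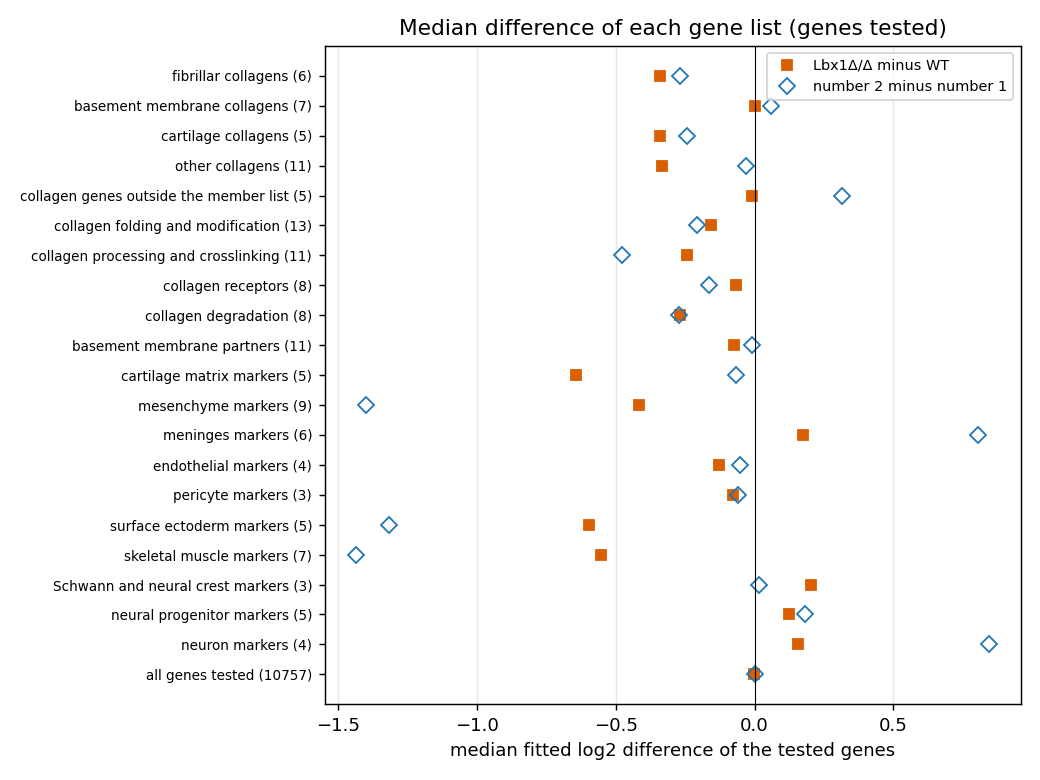
Median fitted log2 difference of the tested genes of each list (number of tested genes in brackets), as filled squares for libraries labelled Lbx1Δ/Δ minus WT and open diamonds for number 2 minus number 1. Mesenchyme markers lie at −0.41 by genotype and −1.40 by number, and fibrillar collagens at −0.34 and −0.27.

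Several genes that make and remodel collagen were lower in number 2. Of the 13 tested genes of collagen folding and modification, 4 passed the test by number (30.8%, against 25.5% of all genes), all lower: P3h2, P3h4 and Crtap, which serve proline 3-hydroxylation or lysine modification, and P4hb, a subunit of prolyl 4-hydroxylase. Of the 11 tested genes of processing and crosslinking, 5 passed (45.5%), all lower. Pcolce, which enhances cleavage of the procollagen C-propeptide, was at 146 and 82.3 CPM in WT and at 122 and 55.2 CPM in the mutant-labelled libraries (log2 by number −0.98, SE 0.18, edgeR adjusted p = 0.0039). The lysyl oxidases Loxl1, Loxl2 and Loxl3 had log2 differences of −0.93, −0.84 and −0.48, and Pxdn, the peroxidase that crosslinks type IV collagen, had −0.58. Serpinh1, the collagen chaperone, and Sparc, a collagen-binding matrix protein, had 4 and 2 accessions and too few counts to be tested.

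Among 8 tested collagen receptors 4 passed by number (50%, against 25.5% of all genes), all lower: Ddr2 (log2 −0.97), the uptake receptor Mrc2 (−0.83), Itga11 (−0.57) and Itgb1 (−0.46). Of 8 tested genes of collagen breakdown 4 passed (50%), of which 3 fell, among them the gelatinase Mmp2 (−0.95) and its activator Mmp14 (−0.58), while Mmp9 rose (1.35). Laminin chain Lama1 (0.42) and Agrn (0.56) rose and Lama5 (−0.60) and Hspg2 (−0.37) fell among 11 basement membrane partners (36.4%). As for Col22a1 and Col23a1, the calls in these 5 lists were lost without WT library 1 and without mutant-labelled library 1. Number 1 then has 1 library, so what that loss means cannot be judged. By genotype these 5 lists had 0 called genes and medians of −0.16, −0.24, −0.066, −0.27 and −0.073, in the order named.

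Col9a1 was counted as 2 RefSeq transcripts that start 17.6 kb apart, and these went opposite ways between the numbers. The long form, NM_007740, encodes the full alpha 1 chain of type IX collagen with its globular amino-terminal domain, and is known from cartilage. The short form, NM_001290691, starts inside the gene, and such forms are known from the eye. The window before the long form's start is chr1:24177360-24177609 and that before the short form's is chr1:24194953-24195202, both on the + strand of GRCm38.p6, from RefSeq. The second lies within the span of the long form and overlaps 0 bases of its exons in GENCODE. The pair is shown because each form has a promoter of its own, with capitals as above.
Col9a1 long form: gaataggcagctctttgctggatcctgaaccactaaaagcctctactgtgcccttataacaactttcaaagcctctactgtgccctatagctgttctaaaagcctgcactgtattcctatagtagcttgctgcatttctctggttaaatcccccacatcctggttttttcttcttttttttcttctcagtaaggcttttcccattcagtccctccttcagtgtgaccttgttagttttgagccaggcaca
Col9a1 short form: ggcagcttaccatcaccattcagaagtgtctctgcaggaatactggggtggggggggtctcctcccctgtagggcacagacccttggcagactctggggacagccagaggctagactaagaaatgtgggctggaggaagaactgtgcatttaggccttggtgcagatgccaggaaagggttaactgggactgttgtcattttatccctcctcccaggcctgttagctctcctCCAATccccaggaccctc
The long form's window held 43.6% G and C and none of the 3 motifs, and the short form's held 56%, with 1 CCAAT.

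The long form had 28 and 109 counts in WT pools 1 and 2, then 4 and 73 with the mutant label, high in number 2 in both groups. Counts of the short form were 119 and 58 in WT and 105 and 70 in the others, low in number 2. The long form thus made up 19.0% (exact 95% binomial interval 13.05 to 26.3%) and 65.3% (57.5 to 72.5%) of the Col9a1 counts in WT libraries 1 and 2, and 3.67% (1.01 to 9.13%) and 51.0% (42.6 to 59.5%) in those labelled Lbx1Δ/Δ. The long form has 1046 bases not shared with the short form, which has 271 of its own. Per kilobase of those bases the long form was at 1.30, 6.15, 0.222 and 4.14 CPM and the short form at 21.3, 12.6, 22.5 and 15.3 CPM, so the long form lay below the short in each library on that scale. Summed over both forms, Col9a1 was at 7.14, 9.85, 6.32 and 8.48 CPM, higher in both number 2 libraries (log2 0.43). In a fit of the single accessions, of which 25% of 11041 tested passed by number, the long form rose in number 2 by 2.67 on the log2 scale (SE 0.59, edgeR adjusted p = 0.0109). The call was lost without WT library 1 (edgeR adjusted p = 0.0955) and without mutant-labelled library 1 (edgeR adjusted p = 0.0704). The short form had a log2 difference of −0.68 (SE 0.28, edgeR adjusted p = 0.105). This split was noticed in these data before it was fitted. Its partner chains, Col9a2 and Col9a3, differed by −0.28 and 0.20 on the log2 scale between the numbers. The cartilage matrix markers had a median of −0.068 by number, with 2 of 5 higher and 3 lower, and 1 of them passed the test, Sox9 (−0.54).

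**Figure D5:**
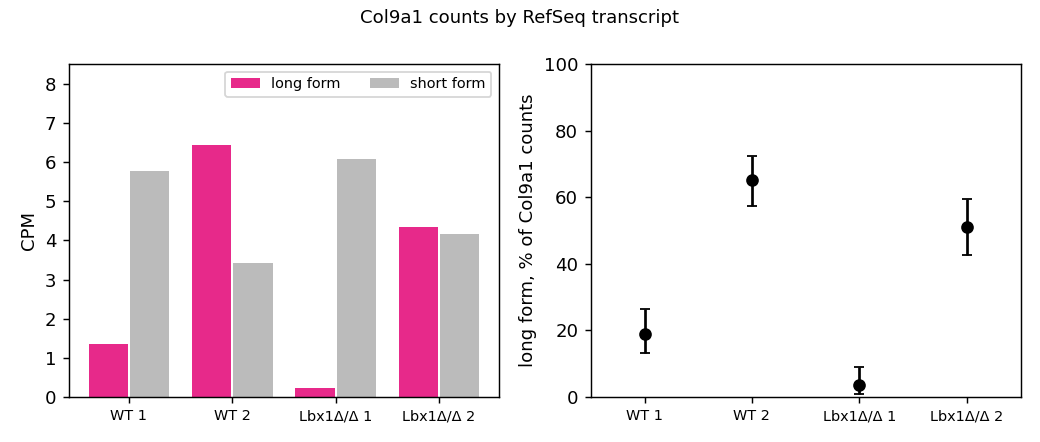
Level of the long and the short Col9a1 transcript in CPM in each library (left), and the long form as a percentage of all Col9a1 counts with exact 95% binomial intervals (right), which cover counting error only. The long form is at 65.3% and 51.0% in the number 2 libraries and at 19.0% and 3.67% in the number 1 libraries.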

How the data were processed

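RNA-seq counts of 4 pooled libraries were used. Raw counts per RefSeq transcript were deposited, and the submitters' processing notes name TopHat2 2.1.1, featureCounts and edgeR with build mm9. Annotation, strand setting and treatment of shared reads: not given in the sources used here. Of 41411 accessions, 41218 were named from a RefSeq gene table (GRCm38), 97 from GENCODE M21 and 96 not at all, and counts were summed per symbol. CPM used the total of all counts. Tests used edgeR 4.0.16 in R 4.3.3 (filterByExpr by group with a minimum count of 10 and total of 15, TMM, glmQLFit, glmQLFTest, two-sided, Benjamini-Hochberg threshold 0.05), with genotype or replicate number as the only term, and were tested on simulated data. SE was taken as the log2 difference over the square root of F. Within-number differences are log2 CPM with 0.5 counts added. Unshared bases are exon bases of the matched GENCODE transcript absent from the gene's other accessions. Alternatives were RLE scaling, library totals alone, DESeq2 1.42.0, other filters, the replicate block, leaving out each library and, added after seeing the data, genes with 1 accession. The members, classes and lists were chosen with earlier results of these data known. Genes outside the family were named if among the 4 smallest p-values of their list in either comparison or past the threshold, apart from untested or 0-count genes, which are named as such.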

Additional observations from a re-analysis of the deposited data

How the results depend on the processing

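RLE scaling, library totals and DESeq2 gave 0 collagen genes called by genotype, as did leaving out each library. By number, DESeq2 called 3 collagen genes and no filter on low counts 4, against 2 in the main fit, where 25.5% of all genes passed. Over all genes DESeq2 called 2642 and no filter on low counts 2992, against 2739 in the main fit. The counts of 3 and 4 thus say nothing particular about collagens. Genotype as second term called 8 (35.6% of all genes). Leaving out 1 library at a time gave 0 to 13 by number. A pool left alone in its group is assumed to vary like the others, so those 0 to 13 calls say nothing particular about collagens. The replicate number as a block called 5 collagen genes by genotype (Col8a2, Col9a3, Col11a1, Col12a1 and Col5a2, edgeR adjusted p of 0.0102, 0.0212, 0.0227, 0.0234 and 0.0354), all lower, against 0.855% of all genes. The deviations of same-numbered libraries correlated at r = 0.657 across 10757 genes, which are not independent replicates, but with 2 pairs and no shared litter in the labels the numbers are not known to pair the libraries. Small genotype values turned sign for Col4a2 without a filter (−0.0080) and with the block (−0.0048). By number, Col1a1 was 0.0007 among genes with 1 accession, an alternative chosen after seeing the data, Col18a1 was 0.0015 with library totals and Col6a2 was 0.0043 with genotype as second term. Counting Col2a1 and Col11a1 as fibrillar moved the cartilage median by number from −0.24 to 0.20. The cause of these shifts was not tested.

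With each library left out in turn, the medians by genotype were −0.45 to −0.15 for all collagens, −0.57 to −0.097 for fibrillar, −0.30 to 0.31 for basement membrane, −0.43 to −0.30 for cartilage and −0.51 to −0.18 for other collagens. By number they were −0.31 to 0.18, −0.54 to 0.0057, −0.093 to 0.21, −0.50 to 0.070 and −0.28 to 0.33. Single genes whose log2 difference by genotype changed sign when a library was left out were Col27a1 −0.56 to 0.043, Col4a2 −0.20 to 0.19, Col4a3 −0.69 to 0.87, Col4a6 −0.30 to 0.52, Col7a1 −0.45 to 0.31, Col2a1 −0.43 to 0.089, Col9a1 −0.43 to 0.03, Col6a3 −0.91 to 0.24, Col22a1 −0.69 to 0.42, Col23a1 −0.67 to 0.24, Col9a1 long form −4.02 to 0.71 and Col9a1 short form −0.19 to 0.58. By number these were Col1a1 −0.22 to 0.21, Col3a1 −0.53 to 0.026, Col5a2 −0.55 to 0.088, Col4a2 −0.098 to 0.21, Col4a4 −0.80 to 0.18, Col7a1 −0.097 to 0.50, Col18a1 −0.24 to 0.18, Col9a3 −0.044 to 0.49, Col11a1 −0.50 to 0.070, Col6a1 −0.24 to 0.37, Col6a2 −0.31 to 0.33, Col8a1 −0.37 to 0.13, Col8a2 −0.57 to 0.19, Col12a1 −0.44 to 0.15, Col16a1 −0.016 to 0.83 and Col19a1 −1.75 to 0.037. At 1 to 100 counts a library, as for Col4a3, Col4a4, Col18a1 and Col6a3, counting error limits what can be seen.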

Other observations

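Collagen genes outside the list of 38 were scarce. Of 7 such genes (Col6a4, Col6a5, Col6a6, Col20a1, Col26a1, Col28a1 and Colq) 5 were tested, and they summed to 15.9 and 17.6 CPM in WT and 18.7 and 17.7 CPM in the mutant-labelled libraries. Col20a1 was the most abundant, at 9.67, 8.08, 12.1 and 8.84 CPM. Col28a1, known from peripheral nerve and its ganglia, was at 1.60 and 1.83 CPM in WT and at 0.928 and 4.92 CPM in the mutant-labelled libraries. None was called by genotype or by number. Markers of surface ectoderm summed to 130 and 79.2 CPM in WT and to 94.3 and 51.1 CPM in the others, and markers of neurons to 4077 and 6882 against 4412 and 7966 CPM. Neural progenitor markers summed to 2179 and 2622 against 2258 and 2786 CPM. Pax6, counted as several RefSeq transcripts, had 0 counts, an uncertain value. The meningeal list summed to 446 and 354 against 458 and 290 CPM, most of it from Crabp2 and Foxc1, which were lower in number 2. Its genes did not all go that way: 4 of the 6 tested had higher fitted values in number 2 and 2 lower. Their median log2 difference by number was 0.80.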
